A study of Mus musculus with 10 samples.

Results

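Chaperones and co-chaperones were described in mouse embryonic tissue with and without fibulin-1. The genes were taken by symbol alone: every gene of the array annotation whose symbol begins with Hspa, Hspb, Hspd, Hspe, Hsph, Hsp90, Dnaja, Dnajb or Dnajc, together with Tcp1 and Cct2 to Cct8. This gave 70 of the 12393 genes that the annotation names, each read on its brightest probe set by mean over all 10 arrays. A probe set is the group of oligonucleotides that together give 1 signal on an Affymetrix array. Another 2 probe sets carry both Dnajc19 and a Dnajc19 pseudogene and were left unnamed. Hspb11 and Hspbp1 come in through their symbols only, since Hspb11 is a subunit of the intraflagellar transport complex and Hspbp1 an exchange factor of Hsp70.

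The tissue was hindbrain with pharyngeal arches 1 to 4, microdissected at E10.5. There were 5 arrays from wildtype embryos and 5 from embryos homozygous for a gene trap insertion in Fbln1, called null here, all from matings of heterozygous carriers. Fbln1 encodes fibulin-1, a glycoprotein of the extracellular matrix, and the series set out to study its effect on FGF8 signalling. Genotypes came from yolk sac, and nothing in the labels ties embryos to litters. The p-values set the difference between genotypes against the spread within them. They treat the 10 pieces of tissue as independent, which could not be checked.

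Chaperones bind unfolded proteins and help them reach or keep their shape. Hsp70 proteins clasp short stretches of a client in a cycle driven by ATP. J proteins, named for the J domain they share, deliver clients and trigger hydrolysis, and exchange factors such as the Hsp110 proteins release the nucleotide. Hsp90 acts later on signalling proteins, and chaperonins are barrels that enclose a client while it folds. Many of these genes are switched on by heat shock factors at a DNA element made of inverted GAA units, while others are expressed at all times, above all in growing tissue.

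Promoter sequences were searched for some of the forms that element can take. RefSeq windows of assembly GRCm38.p6, running from 250 bases before to 50 after each transcription start, matched 58 of the 70 genes. The letters GAANNTTC, which read the same on both strands, stood in a window of 13 of these 58 (22.4%), against 7.86% of all 32851 windows and 9.04% of all 27025 genes. A longer form is the same letters followed by NNGAA. It was found on either strand in 4 of 58 genes (6.90%), against 0.603% of all windows and 0.662% of all genes. Those 4 were Dnajb6, Hspd1, Hspe1 and Hsph1. The following stretches are shown because pairs of genes in the set share them, or because they hold the longer form before the start, with the matching letters in capitals. In Hsph1 the longer form begins 15 or 36 bases after the start, by window, and is not shown.
Hspd1: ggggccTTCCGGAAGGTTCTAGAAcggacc
Hspe1: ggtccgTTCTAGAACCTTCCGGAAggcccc
Dnajb6: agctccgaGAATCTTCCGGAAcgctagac
Hspa1a: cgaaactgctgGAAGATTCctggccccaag
Hspa1b: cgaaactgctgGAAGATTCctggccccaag
Hspd1 and Hspe1, the mitochondrial chaperonin and its lid, lie head to head, and their stretches are the 2 strands of chr1:55088053-55088082, minus for Hspd1 and plus for Hspe1. The Dnajb6 stretch is chr5:29735844-29735872 on the plus strand, 33 bases from the match to the earlier of its starts. Hspa1a (chr17:34972242-34972271, minus strand) and Hspa1b (chr17:34959324-34959353, minus strand) are near-identical copies of the heat-inducible Hsp70, and their windows are alike at 296 of 300 letters. A match is a string of letters and not a measured binding site. Other forms of the element, such as TTCNNGAA alone or units with a differing letter, were not searched for.

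The labels were checked on Fbln1 first. Its brighter probe set averaged 4.55 ± 0.50 (SD, n = 5) on the log2 scale in wildtype and 2.66 ± 0.13 in null arrays, and no null array reached the wildtype range. The two-sided exact permutation p of 0.00794 is the lowest possible with 5 arrays a genotype. Array medians were 3.20 to 3.29 on the log2 scale, correlations between arrays were 0.985 to 0.996, and precision is set by having 10 arrays. Of markers fixed for the tissue, 5 of 8 hindbrain genes and 4 of 9 arch and crest genes on the array were over the expression filter, and Hand2, Dlx5, Tbx1, Hoxb1 and Hoxb2 were not. The hindbrain list mean was 4.63 to 5.07 in wildtype and 4.45 to 4.94 in null, and that of arches and crest 5.03 to 5.66 and 5.08 to 5.49. Among the hindbrain genes Pax6 averaged 6.16 in wildtype and 5.63 in null arrays, with overlapping values, and its part in the chaperone differences was not tested. Embryonic globins were strongly read in every array, with erythroid list means of 7.56 to 8.45 in wildtype and 8.00 to 8.50 in null. The heart list mean was 3.46 to 4.16 in wildtype and 3.51 to 3.89 in null, the endothelial one 4.40 to 4.66 and 4.47 to 4.56, the forebrain and eye one 2.38 to 2.56 and 2.30 to 2.47. The list for liver, yolk sac and gut had means of 3.04 to 5.16 in wildtype and 2.95 to 3.72 in null arrays. In such dissected tissue, fewer cells of a type and less RNA per cell cannot be told apart. The actin control probe sets, whose 3′ minus 5′ log2 difference grows as RNA is shorter, stood at 2.0 to 2.38 in wildtype and 2.19 to 2.85 in null arrays. Wildtype replicate 4 was the only array with Xist signal over that of the Y-linked Eif2s3y.

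Most chaperone genes were expressed, while Hspa1a and most small heat shock proteins were near the floor. A filter kept probe sets with a log2 value over 4 on 5 or more arrays of either genotype, and 48 of the 70 genes passed it. Of these, 45 were over 4 on all 10 arrays, among them Hspa8, the constant cytosolic Hsp70, Hsp90aa1, Hspa5, the Hsp70 of the endoplasmic reticulum (ER), Hspa9, that of mitochondria, and all chaperonin subunits tested. Among the 22 under the filter, 20 were at or under 4 on all 10 arrays, and 17 had a mean under 3. They hold the heat-inducible Hspa1a, at 2.28 to 2.38 in wildtype and 2.28 to 2.59 in null arrays, and the small heat shock proteins Hspb1, Hspb2, Hspb3 and Hspb7. Germline forms such as Hspa1l, Dnajb3, Dnajb13 and Cct6b were there too. No probe set was named Hsp90ab1 here. Signals of different probe sets depend on their sequences and are not set against each other. Of the 48 probe sets, 5 carry the suffix _x_at or _s_at, which marks probes that may match several transcripts. They are those of Cct2, Cct4, Dnajc2, Dnajc10 and Hspe1.

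No chaperone gene passed the test between the genotypes. By limma, with Benjamini-Hochberg adjustment over all 9801 probe sets over the filter, 0 of 48 had an adjusted p under 0.05, where 0.0204% of all probe sets did. At an adjusted p under 0.1 there was 1, Dnajb1, against 0.469% of probe sets. An unadjusted limma p under 0.05 was reached by 8 of 48 (16.7%), 7 lower and 1 higher in null tissue, against 12.8% of the 5910 genes tested. That share is near the background, which was 8.98% for lower and 3.84% for higher genes. With quantile normalization 6 were lower and 2 higher, since Hspa4 was no longer under 0.05 and Dnajc21, with a higher mean, was. Over all probe sets 12.1% were under 0.05 with that normalization. Of these, 53.2% were lower, against 69.1% in the main fit and 50.9% with median centring, so the background of lower genes depends on scaling. The genotypes did not overlap for 4 of 48 (8.33%), against 2.88% of all genes. Of these, 3 were lower, where 2.03% of all genes were, and 1 was higher, where 0.846% were. Genotypes without overlap always give an exact permutation p of 0.00794, so for such genes that value is no further test.

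Small negative differences were common among them. Of the 48, 34 had a lower mean in null tissue (70.8%), against 56.9% of all genes, and the median log2 difference was -0.12, against -0.04 over all genes. With quantile normalization 33 of 48 were lower against 49.3% of all genes, with medians of -0.08 and 0.00, and with median centring 31 of 48 against 48.5%. The difference was under 0.2 in size for 27 of the 48. Sizes varied by family, as the plot of all 48 differences shows.

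**Figure D1:**
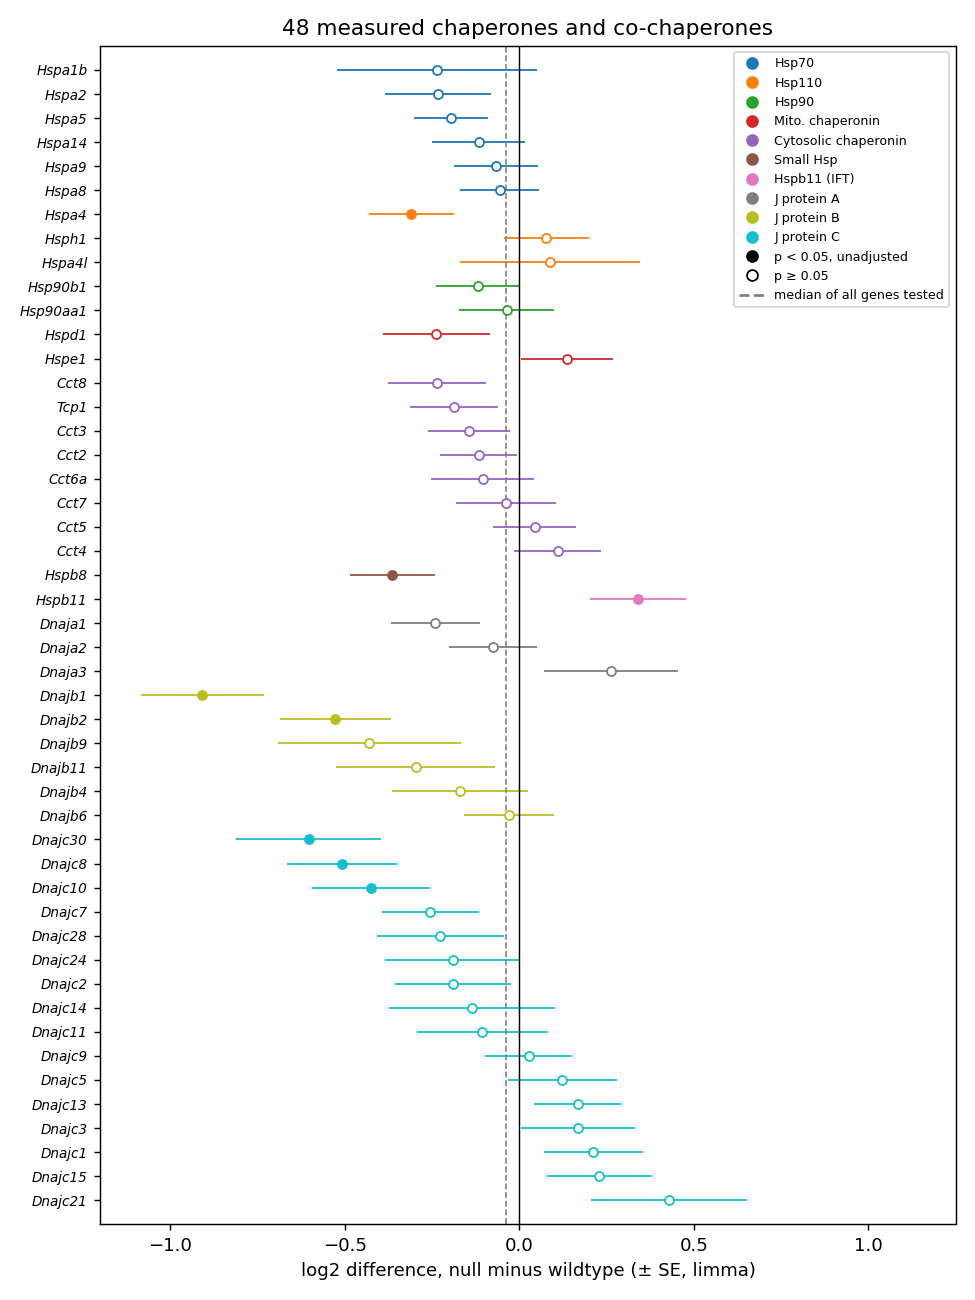
Log2 difference, null minus wildtype, for each of the 48 chaperone genes over the filter, with limma's standard error and colours for families. Dnajb1 lies farthest from 0 at -0.91, all 6 tested Hsp70 genes and all 6 tested B-class J proteins lie left of 0, and the filled points are the 8 with an unadjusted p under 0.05.

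**Figure D2:**
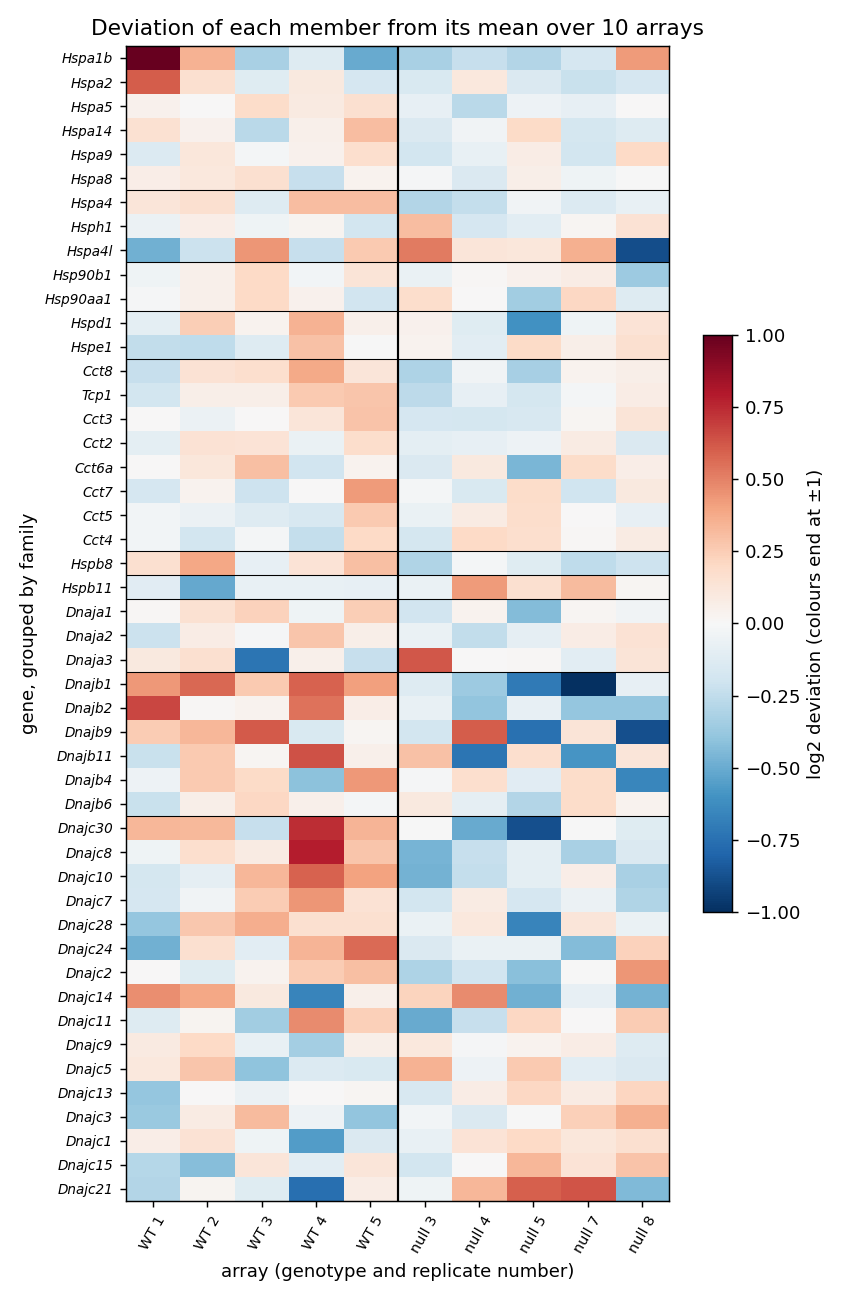
Deviation of each of the 48 genes from its own mean over the 10 arrays, in log2 units, with wildtype arrays left and null arrays right of the line. Dnajb1 is above its mean in all 5 wildtype arrays and below it in all 5 null arrays, while most rows of Hsp70, Hsp90 and chaperonin genes stay pale.

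Dnajb1 had the smallest p of the set. It encodes the main cytosolic J protein of the heat shock response, the partner of Hspa8 and Hspa1a. The wildtype arrays, replicates 1 to 5, read 7.78, 7.92, 7.61, 7.94 and 7.76 on the log2 scale. The null arrays, replicates 3, 4, 5, 7 and 8, read 7.22, 6.98, 6.64, 6.35 and 7.27. All null arrays were below all wildtype arrays, and the null arrays were more spread out (SD 0.39 against 0.13). The log2 difference was -0.91 (SE 0.18), a signal 1.88-fold lower in null tissue (limma p = 0.000212, adjusted p = 0.0781; exact permutation p = 0.00794). Over the alternatives tried the adjusted limma p of Dnajb1 ran from 0.0431 (filter at log2 6) to 0.245 (replicate number as a block). It was 0.0440 with array weights. With the log2 6 filter or the weights 34 probe sets passed an adjusted p of 0.05, against 2 in the main fit. With the block, the difference rests on replicates 3, 4 and 5 alone, the numbers found in both genotypes. With the actin probe difference as a covariate the log2 difference was -0.83 (SE 0.21, limma adjusted p = 0.187).

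A dimmer Dnajb1 probe set gave no such separation. It was over 4 on too few arrays to pass the filter and averaged 4.18 ± 0.29 (SD, n = 5) for wildtype and 3.94 ± 0.30 for null, with overlapping values. The mean of both probe sets had a log2 difference of -0.57 (limma adjusted p = 0.165). In neither of the 2 promoter windows of Dnajb1 did the letters GAANNTTC occur. Other forms of the element were not searched for, so this does not show that Dnajb1 lacks it. Among the 8 tested genes with the letters GAANNTTC in a window, differences ran from -0.36 to 0.14. An unadjusted limma p under 0.05 was reached by 1 of these 8, Hspb8, and by 6 of the 32 tested genes with a window but no match. The share over all genes was 12.8%, and whether the 2 groups of genes differ was not tested.

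Genes whose signal over the 10 arrays was most like that of Dnajb1 were Celsr1 (Pearson r = 0.935), Ei24 (0.934), Pan2 (0.932), Mcm6 (0.927) and Pkig (0.924). These correlations describe 10 arrays that share the split by genotype, so genes lower in null tissue rank high. None of those 5 is a chaperone. The nearest chaperone gene was Hspb8 at rank 227 with r = 0.743, followed by Dnajc30 at 0.715 and Dnajb2 at 0.701.

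**Figure D3:**
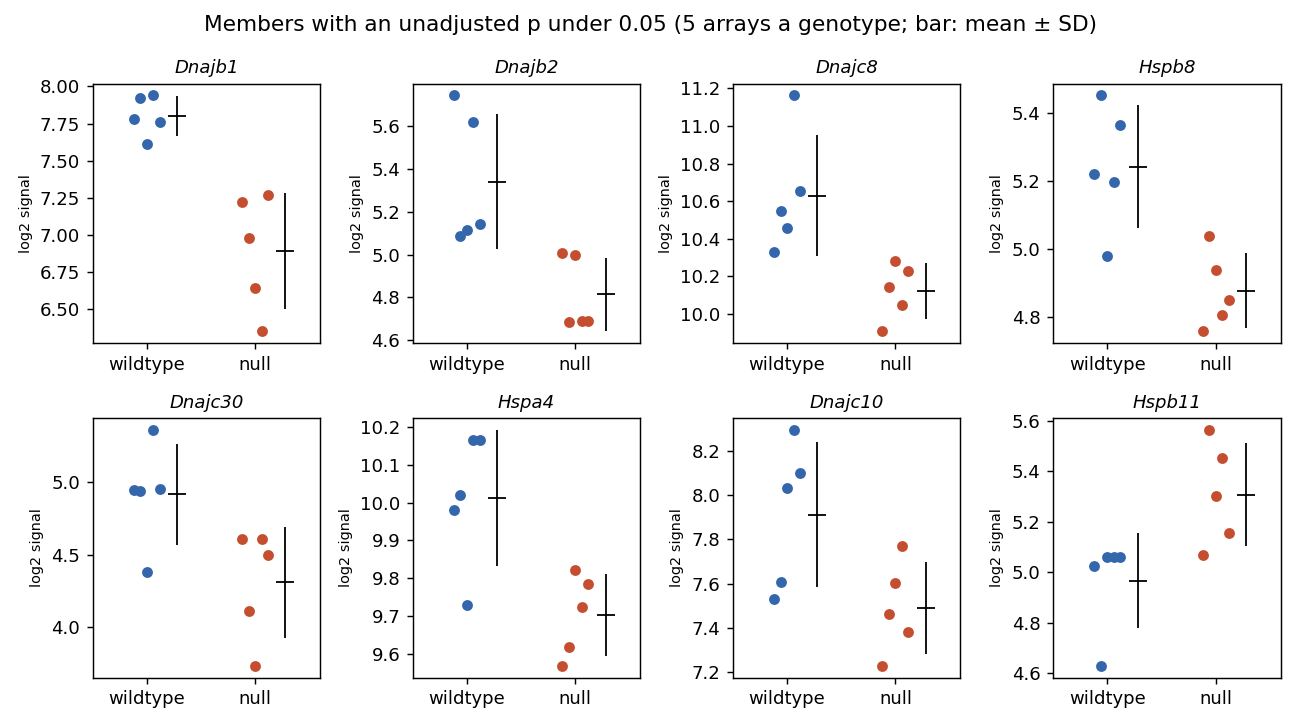
Log2 signal on each array for the 8 chaperone genes with an unadjusted limma p under 0.05, by genotype, with the mean and SD of 5 arrays. The genotypes do not overlap for Dnajb1, Dnajb2, Dnajc8 and Hspb11, where the lowest null array (5.07) is barely over the highest wildtype array (5.06).

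The other B-class J proteins also had lower means, without passing the test. Dnajb2, a J protein with ubiquitin-interacting motifs that is prominent in neurons, read 5.74, 5.09, 5.11, 5.62 and 5.14 in wildtype replicates 1 to 5. In null replicates 3, 4, 5, 7 and 8 it read 4.69 to 5.01, so that the genotypes did not overlap. Wildtype replicates 1 and 4 were the high ones, and the nearest arrays of the 2 genotypes were 5.01 and 5.09. The log2 difference was -0.53 (SE 0.16, limma p = 0.00605, adjusted p = 0.240, exact permutation p = 0.00794). Dnajb9, an ER J protein induced by unfolded proteins, had -0.43 (SE 0.26), with null arrays from 5.25 to 6.73 and wildtype arrays from 5.98 to 6.74. Dnajb11, which helps Hspa5 in the ER, had -0.30 (SE 0.23) and Dnajb4 -0.17 (SE 0.19). All 6 tested B-class genes had lower means, where 56.9% of all genes did, with a median of -0.36.

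Dnajb6, a J protein that keeps polyglutamine and other proteins from aggregating, differed by probe set. Its brightest read 11.44 ± 0.16 in wildtype and 11.41 ± 0.19 in null tissue, a log2 difference of -0.03 (SE 0.13). A dimmer one read 6.24, 6.25, 5.49, 6.17 and 5.84 in wildtype and 5.51, 5.30, 5.54, 4.82 and 5.17 in null arrays. On it only wildtype replicate 3 lay among null values, and the log2 difference was -0.73 (SE 0.18, limma adjusted p = 0.144). The 2 others had -0.03 (SE 0.23) and -0.28 (SE 0.26). Which transcript forms the 4 probe sets read was not examined.

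Among C-class J proteins, which share the J domain and little else, differences went both ways. Of 16 tested, 9 had lower and 7 higher means, and 3 had an unadjusted limma p under 0.05 (18.8%, against 12.8% of all genes), each of them lower. Dnajc8, a J protein found with splicing factors, read 10.33, 10.55, 10.46, 11.16 and 10.65 in wildtype and 9.91, 10.14, 10.28, 10.05 and 10.23 in null arrays. Its genotypes did not overlap, though null replicate 5 came within 0.05 of wildtype replicate 1, and wildtype replicate 4 stood highest. The log2 difference was -0.51 (SE 0.16, limma p = 0.00723, adjusted p = 0.260, exact permutation p = 0.00794). Over all 22 alternatives tried, Dnajb1 and Dnajc8 kept an unadjusted limma p under 0.05.

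Dnajc30, a mitochondrial J protein tied to ATP synthase, averaged 4.92 ± 0.35 (SD, n = 5) for wildtype and 4.31 ± 0.38 for null. These values are near the filter, and wildtype replicate 3 at 4.38 lay within the null range of 3.74 to 4.61. Its log2 difference was -0.60 (SE 0.21, limma p = 0.0128, adjusted p = 0.296, exact permutation p = 0.0317). With the actin covariate it was -0.35, with an unadjusted limma p over 0.05. Dnajc10, an ER reductase that opens disulfide bonds, had -0.42 (SE 0.17, limma p = 0.0270, adjusted p = 0.339, exact permutation p = 0.0556), and its dimmer probe sets had -0.21 (SE 0.15) and -0.06 (SE 0.27). The unadjusted limma p of Dnajc10 was over 0.05 when any 1 of wildtype replicates 3, 4 and 5 or null replicates 3 and 8 was left out, with differences of -0.33 to -0.40. It was also over 0.05 with the actin covariate and with the mean of its probe sets, and over all alternatives the difference ran from -0.71 to -0.23.

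Of the 14 genes with higher means in null tissue, 8 were J proteins, 7 of class C and 1 of class A. Dnajc21, which acts in maturation of the large ribosomal subunit, averaged 6.08 ± 0.34 for wildtype and 6.51 ± 0.45 for null (log2 difference 0.43, SE 0.22, limma adjusted p = 0.468), and 0.17 with the actin covariate. Dnaja3, of the mitochondrial matrix, had 0.26 (SE 0.19), and Dnajc15, of the mitochondrial import motor, 0.23 (SE 0.15). Dnajc1, of the ER membrane, had 0.21 (SE 0.14), Dnajc3, an ER inhibitor of the kinase PERK, 0.17 (SE 0.16), and Dnajc13, of endosomes, 0.17 (SE 0.13). Dnajc5, which protects synaptic vesicle proteins, had 0.12 (SE 0.16). For each of these 7 genes the genotypes overlapped. Dnaja1, the abundant A-class partner of Hspa8, had -0.24 (SE 0.13), and Dnajc7, which links Hsp70 to Hsp90, -0.25 (SE 0.14).

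Hsp70 genes had small differences of 1 sign. All 6 over the filter had lower means, where 56.9% of all genes did. Their median was -0.16, and 0 had an unadjusted limma p under 0.05. For Hspa8 the log2 difference was -0.06 (SE 0.11), for Hspa9 -0.07 (SE 0.12) and for Hspa14, which sits on the ribosome with Dnajc2, -0.12 (SE 0.13). A further probe set of Hspa9 had -0.29 (SE 0.13). Hspa5 was the steadiest of the 48 genes within the genotypes, with a pooled SD of 0.0907 against a median of 0.209 over the 48. It read 11.44, 11.40, 11.57, 11.48 and 11.56 in wildtype and 11.31, 11.12, 11.34, 11.31 and 11.40 in null arrays. Null replicate 8 alone touched the wildtype range, and the log2 difference was -0.19 (SE 0.11, limma p = 0.0901, adjusted p = 0.490; exact permutation p = 0.0159). Its other probe set had -0.21 (SE 0.12). Over 22 alternatives, the unadjusted limma p of Hspa5 was under 0.05 in 3.

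Hspa1b varied more between embryos than any other of the 48, with a pooled SD of 0.532. The wildtype arrays read 5.43, 4.56, 3.89, 4.09 and 3.71, and the null arrays 3.89, 3.99, 3.92, 4.05 and 4.64. Wildtype replicates 1 and 2 and null replicate 8 were the high ones, and the genotypes overlapped. The log2 difference of -0.24 (SE 0.29) became 0.036 without wildtype replicate 1. Wildtype replicates 1 and 2 also had the highest means of the 3 immediate early genes over the filter (Jun, Egr1 and Dusp1), 7.81 and 7.71, against 7.02 to 7.56 in the other arrays. Null replicate 8, high in Hspa1b, was among the lowest there at 7.04. The part of handling in this was not tested. Hspa1a and Hspa1b are near-identical copies, so which of them this probe set read is uncertain.

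Hspa4, an Hsp110 protein that exchanges nucleotide on Hsp70, had lower null means on each of 3 probe sets. The brightest read 9.98, 10.02, 9.73, 10.16 and 10.17 in wildtype and 9.57, 9.62, 9.82, 9.72 and 9.78 in null arrays, with wildtype replicate 3 among the null values. Its log2 difference was -0.31 (SE 0.12, limma p = 0.0251, adjusted p = 0.336, exact permutation p = 0.0238). The others had -0.49 (SE 0.26) and -0.42 (SE 0.20). Its unadjusted limma p was over 0.05 with quantile normalization, median centring, the actin covariate or the replicate block. It was also over 0.05 without wildtype replicates 1 and 2. The same held when wildtype replicate 4 or 5 or null replicate 3 or 4 was left out, and over all alternatives the difference ran from -0.40 to -0.26. Hsph1, the heat-inducible Hsp110 protein, had 0.08 (SE 0.12) and Hspa4l 0.09 (SE 0.26).

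Hsp90 and chaperonin genes had small differences on their brightest probe sets. Further probe sets of Cct4 and Cct3 had larger ones, given below. Hsp90aa1, the inducible cytosolic Hsp90, had -0.04 (SE 0.14) with -0.03 and -0.02 on its further probe sets, and Hsp90b1, that of the ER, had -0.12 (SE 0.12). Hspd1 had -0.24 (SE 0.15) and Hspe1 0.14 (SE 0.13), although their promoters share the stretch printed above, and neither passed the test. Whether the difference between these 2 genes differed was not tested. Subunits of the cytosolic chaperonin, which folds actin and tubulin, ran from -0.24 for Cct8 (SE 0.14) to 0.11 for Cct4 (SE 0.13). Tcp1, its alpha subunit, had -0.19 (SE 0.13), Cct3 -0.14, Cct2 -0.12, Cct6a -0.10, Cct7 -0.04 and Cct5 0.04. Of these 8 subunits 6 had lower means, their median was -0.11 and 0 had an unadjusted limma p under 0.05. The sign for Hsp90aa1 and Cct7 was turned by median centring.

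Hspb8 was the 1 small heat shock protein over the filter. Of its 3 probe sets only the brightest passed, and the others averaged 2.26 to 2.27 in both genotypes. Hspb8 acts with Bag3, which was under the filter, in sorting damaged proteins to autophagy. The wildtype arrays read 5.22, 5.45, 4.98, 5.20 and 5.36 and the null arrays 4.76, 5.04, 4.94, 4.81 and 4.85. Wildtype replicate 3 lay below the highest null array. Without wildtype replicates 1 and 2, or with the replicate number as a block, the unadjusted limma p was over 0.05. The log2 difference was -0.36 (SE 0.12, limma p = 0.0110, adjusted p = 0.279, exact permutation p = 0.0159). Hspb11, the transport subunit, was the 1 gene of the 48 higher at an unadjusted limma p under 0.05. Its mean was 4.97 ± 0.19 for wildtype and 5.31 ± 0.20 for null (log2 difference 0.34, SE 0.14, limma p = 0.0287, adjusted p = 0.340, exact permutation p = 0.00794). Leaving out wildtype replicate 2 or null replicate 4 or 7, or both wildtype replicates 1 and 2, took the unadjusted p over 0.05. The replicate number as a block did so too.

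Further probe sets of the same genes gave a second reading. Of 40 over the filter, from 23 genes, 29 shared the direction of the brightest (72.5%), against 62.1% of 3054 further probe sets of all genes. An unadjusted limma p under 0.05 was reached by 5 of 40 (12.5%), against 11.8% of the further probe sets of all genes. They read Dnajb6, given above, Cct4 (-0.57, SE 0.19), Cct3 (-0.41, SE 0.16), Hspa9 (-0.29, SE 0.13) and Dnajc5 (0.33, SE 0.15). In Cct4 this went against the brightest probe set, and the 2 remaining ones had 0.02 and -0.06. None of the 5 had an adjusted limma p under 0.1.

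**Figure D4:**
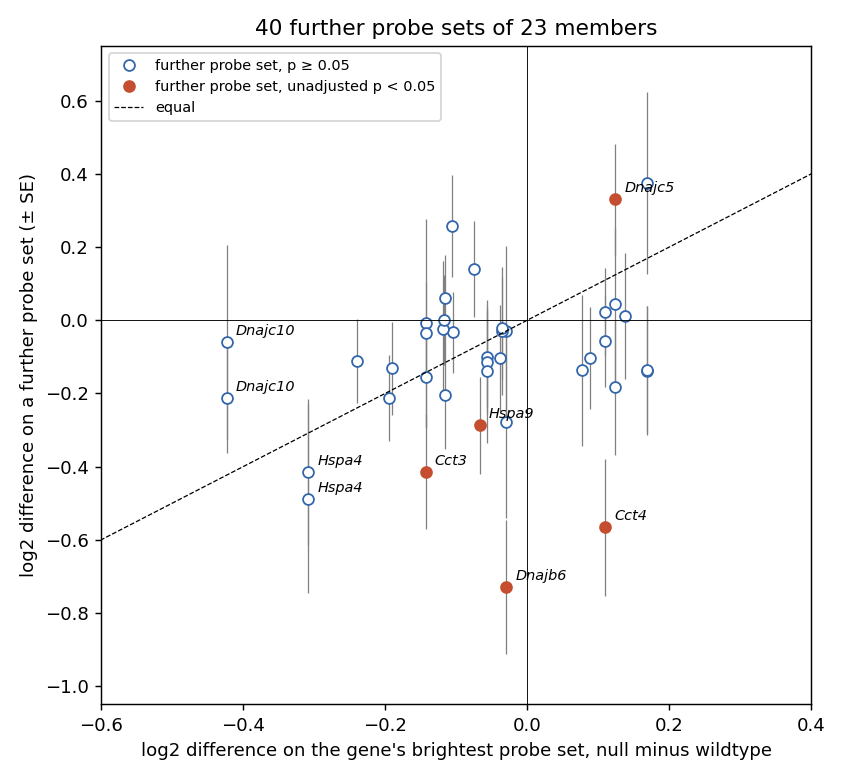
Log2 difference, null minus wildtype, on 40 further probe sets (vertical, with SE) against that on the brightest probe set of the same gene (horizontal). Hspa4 keeps its direction on all 3 probe sets, while the filled points of Dnajb6 and Cct4 lie far under the dashed line of equal differences.

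Other genes of protein folding, listed by role and not covered by the symbols above, were read the same way. Of 54 listed, 50 were named on the array and 41 were over the filter, of which 21 had lower and 20 higher means (median -0.01). By limma 0 passed an adjusted p of 0.05, and 6 were lower and 2 higher at an unadjusted p under 0.05 (19.5%, against 12.8% of all genes). Manf, a secreted ER protein induced by unfolded proteins, averaged 9.30 ± 0.09 (SD, n = 5) for wildtype and 8.52 ± 0.27 for null without overlap (log2 difference -0.78, SE 0.14, limma adjusted p = 0.0739). All 7 tested genes listed here as exchange factors and partners of Hsp70 had lower means (median -0.24), where 56.9% of all genes did. Among them were Bag6 at -0.61 (SE 0.27) and Bag5 at -0.53 (SE 0.21). The Hsp110 proteins, also exchange factors, were counted above, with 2 of 3 higher. Bag5 had -0.34 without null replicate 3. Of 15 ER folding and stress genes 10 had higher means (median 0.10), with P4hb, the disulfide isomerase, at -0.38 (SE 0.15). Pdia4, another isomerase of the ER, went the other way at 0.93 (SE 0.37, limma adjusted p = 0.339). Co-chaperones of Hsp90 were split 6 lower and 5 higher, with St13, which joins Hsp70 to Hsp90, at 0.43 (SE 0.13) and Sugt1 at -0.35 (SE 0.14). Of 7 prefoldin and chaperonin partners 3 had lower and 4 higher means. Hsf1, the main heat shock factor, was not named on the array, Hsf2 and Hsf4 were under the filter, and Hsbp1, which binds the factor, had 0.25 (SE 0.13).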

How the data were processed

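The values are log2 signals as deposited, and the submitters' processing notes name GCRMA, with no version stated there. This method estimates background by probe sequence, normalizes the arrays together and pulls dim probe sets to a floor, so differences of dim genes are compressed. RNA was labelled with a 3′ kit, per the labels' protocols.

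Of 22690 probe sets 64 controls were left out. The platform annotation gave 1 symbol to 20380 of the rest, several to 691 and none to 1555, and only the first were named. Genotypes were compared with limma 3.58.1 (lmFit, eBayes) in R 4.3.3, with genotype alone, two-sided, with Benjamini-Hochberg adjustment over 9801 probe sets with log2 over 4 on at least 5 arrays. For single values, an exact permutation test took all 252 splits of the arrays. The fit was tested on simulated data. No protein sequences were used here.

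The chaperone genes and the lists were chosen with earlier results of these data known. Genes named were those with an adjusted p under 0.1, with genotypes that do not overlap, the 10 of smallest p in each direction, fixed genes of known role, the 5 of smallest p among other folding genes, and the 5 most like the chaperone gene of smallest p. Others, and the further probe sets given by name, were chosen after their values were seen. Replicate numbers 3, 4 and 5 occur in both genotypes, and the labels do not say whether they pair embryos. Alternatives changed normalization, the expression filter or floor, the variance model, weights, covariates, the probe set rule and which arrays entered.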

Additional observations from a re-analysis of the deposited data

Results flagged for a closer look

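Single arrays stood far from the other 4 of their genotype in 4 of 80 groups of values looked at, which is the number that chance gives at 1 in 20. Dnajc13 read 10.09 in wildtype replicate 1, against 10.41 to 10.49 in the other wildtype arrays. Hspa1b read 4.64 in null replicate 8, against 3.89 to 4.05 in the other null arrays. Hspb11 read 4.63 in wildtype replicate 2, against 5.03 to 5.06 in the others. Bag5 read 3.22 in null replicate 3, against 4.01 to 4.31 in the others.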

How the results depend on the processing

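Of 48 chaperone genes, 0 passed an adjusted limma p of 0.05, and 1 did (Dnajb1) with a log2 6 filter or array weights, or at a threshold of 0.1. Over all probe sets, 34 of 6320 passed 0.05 with that filter and 34 of 9801 with the weights, against 2 of 9801 in the main fit. At 0.1 it was 46 of 9801. The count at an unadjusted p under 0.05 was 8, and 4 with the log2 6 filter, where 37 genes were tested, and 5 with the actin covariate. Shares over all probe sets were 12.4%, 13.4% and 12.2% in the same order. The count without overlap was 4 in the main fit, and 2 with quantile normalization or the log2 6 filter. It was 4 to 7 with 1 array left out and 9 without wildtype replicates 1 and 2, where fewer arrays make overlap rarer. Over all genes the share was 2.88% in the main fit and is not given for the alternatives. The median difference of -0.12 was -0.062 without a filter. Among other folding genes 1 passed with the log2 6 filter, with array weights and when probe sets were averaged by gene, against 0. With averaging by gene, 7 of all 5315 genes tested passed. A fit on the sex covariate equals leaving out wildtype replicate 4. With the replicate number as a block 0 of 48 passed and Dnajb1 had -0.82 (SE 0.21, limma adjusted p = 0.245). Only numbers 3, 4 and 5 occur in both genotypes, so differences from the block fit rest on their arrays alone. The deviations of same-numbered arrays correlated at -0.19, -0.34 and 0.16. Whether the numbers mark a pairing cannot be told from so few correlations.

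Of 762 values of 35 named genes over the alternatives 18 turned sign, 0 of them among the 8 genes at an unadjusted p under 0.05. With median centring Hsp90aa1 had 0.0096 and Cct7 0.0073, and with the block Dnajc3 had -0.013, Hspe1 -0.012 and Hspa1b 0.039. With the actin covariate Dnajc5 had -0.040, Hsp90aa1 0.038, Cct5 -0.032 and Cct6a 0.0053. When probe sets were averaged by gene Cct4 had -0.083, Hsph1 -0.030 and Cct8 9.66e-05. Without wildtype replicates 1 and 2 Hspa1b had 0.20. With 1 array left out Hsp90aa1 ran from -0.092 to 0.046, Cct7 from -0.094 to 0.064 and Hspa1b from -0.39 to 0.036. The cause of these changes was not tested.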
